A study of Homo sapiens with 8 samples.

Results

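The genes described here are 10 components and regulators of the mechanistic target of rapamycin complex 1 (mTORC1) and of its nutrient inputs: MTOR, RPTOR, DEPTOR, TSC1, TSC2, RHEB, RRAGC, RRAGD, SESN2 and DDIT4. They were chosen by name, with earlier results of these data known, as 10 of the 18892 gene rows of the polyA RNA table. Their ranks among all genes are therefore only descriptive. All 10 were present and passed the filter on low values. The cells were C4-2, a human prostate cancer line. In the polyA RNA libraries they carried either a short hairpin RNA against CDCA8 (shCDCA8, 2 libraries) or a control hairpin (shCTRL, 2 libraries), both grown in RPMI medium with serum. CDCA8 codes for borealin, which helps place the chromosomal passenger complex on dividing chromosomes. The labels name 1 hairpin against CDCA8 and no rescue, so off-target effects of the hairpin and loss of CDCA8 cannot be told apart. The series also holds small RNA libraries after EZH2 knockdown, which do not measure these genes.

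mTORC1 is the kinase complex that couples amino acids, growth factors and energy to protein synthesis and cell growth. Amino acids act through the Rag GTPases, which bring the complex to the lysosome, while growth factors act through the tuberous sclerosis complex (TSC), which holds the small GTPase RHEB inactive until it is inhibited. Sestrin 2, the product of SESN2, and REDD1, the product of DDIT4, restrain the pathway when amino acids or oxygen are short or when the integrated stress response, driven by the transcription factor ATF4, is active. In prostate cancer cells the pathway lies downstream of phosphoinositide 3-kinase. RNA levels say nothing of the phosphorylation by which the complex is switched on and off.

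Values are RPM, read counts divided by a library total and put on a common scale; that total was between 46709612 and 55289855 reads. Of that total, 33.3% and 34.2% fell in the gene rows in the shCDCA8 libraries, against 41.1% and 43.6% in the shCTRL libraries. Over the 11833 genes tested, the median log2 fold change was -0.27, and the fold changes of the 10 genes are also given after median-ratio scaling, which sets the typical gene equal across the 4 libraries and moved that median to 0.0058. CDCA8 stood at 3.98 and 3.94 RPM in shCDCA8 cells, against 14.2 and 16.5 RPM in shCTRL cells, so the knockdown was visible in both libraries. All 9 listed markers of prostate luminal epithelium were detected, with summed levels of 1932 to 2035 RPM in shCDCA8 cells and 3757 to 3915 RPM in shCTRL cells, and 6 of them were called lower and 2 higher. Summed markers of other lineages were low, at 3.85 to 4.30 RPM in shCDCA8 cells and 9.83 to 12.2 RPM in shCTRL cells for 6 fibroblast genes and at 10.2 to 11.8 RPM in shCDCA8 cells and 11.1 to 14.5 RPM in shCTRL cells for 5 leukocyte and endothelial genes. For 3 neuroendocrine genes the sums were 1.10 to 1.93 RPM in shCDCA8 cells and 3.02 to 4.62 RPM in shCTRL cells. The basal gene KRT14 stood at 2.03 to 2.35 RPM in shCDCA8 cells and 2.53 RPM in shCTRL cells. KRT5 and TP63 of the basal list and PTPRC and CDH5 of the leukocyte and endothelial list had no row. Of the markers with a row, none was at 0 in all 4 libraries. The part that this luminal shift has in the results below was not tested. In RNA from whole cultures, fewer cells that express a gene and less RNA per cell cannot be told apart.

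SESN2 and DDIT4, the stress-induced inhibitors of the pathway, fell together and were the 2 genes of the 10 that changed more than 2-fold. As deposited, DDIT4, MTOR, RRAGD and SESN2 fell, DEPTOR rose, and RPTOR, TSC1, TSC2, RRAGC and RHEB were not called by limma at an adjusted p under 0.05. After median-ratio scaling SESN2, DDIT4 and RRAGD fell, DEPTOR, TSC1 and RRAGC rose, and MTOR was no longer called. A count of 4 lower and 1 higher among 10 is near the background, since 47.6% of all genes tested were called lower and 18.8% higher, and 33.6% and 33.2% after median-ratio scaling. The 2 genes called lower by at least 2-fold compare with 14.6% of all genes. The groups did not overlap for 8 of the 10 genes, TSC2 and RPTOR being the exceptions, against 83.2% of all genes. The genes are therefore described one by one, and nothing is read from the number called.

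**Figure D1:**
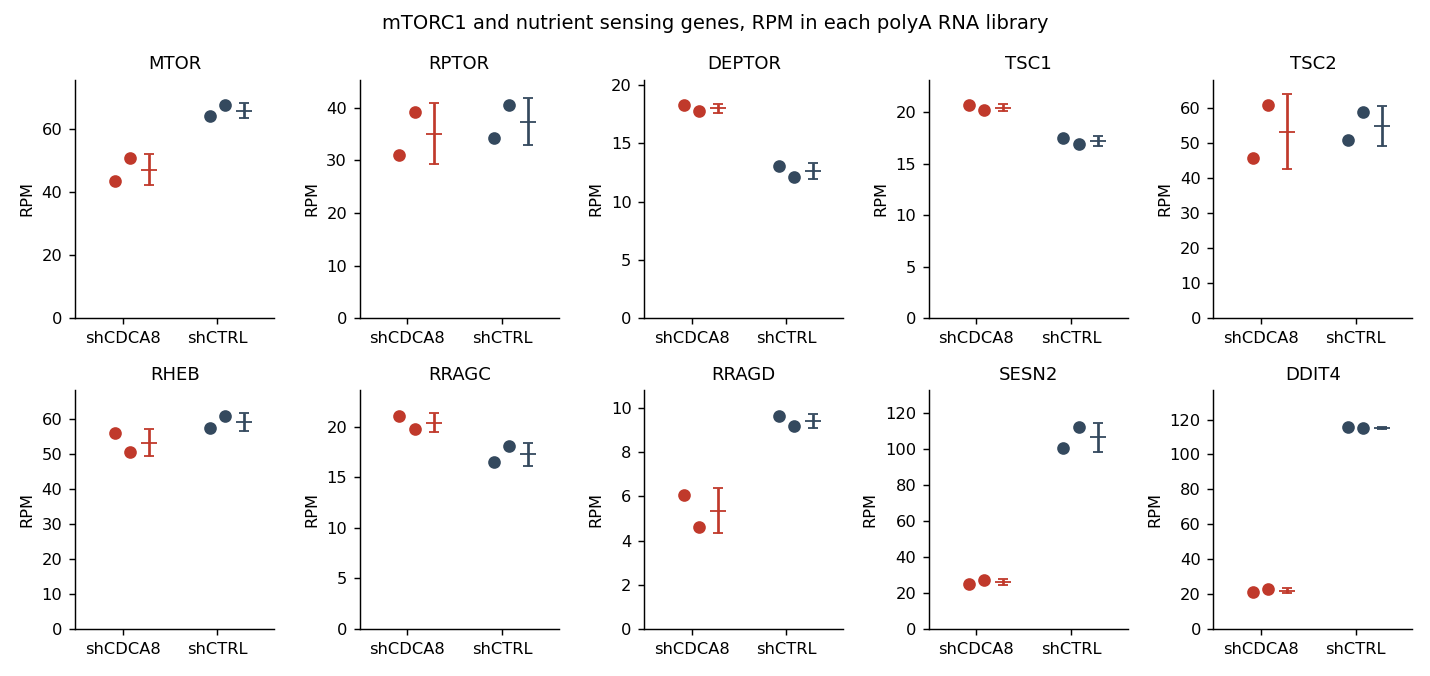
Level in RPM of each of the 10 genes in shCDCA8 cells (red, left) and shCTRL cells (dark blue, right); points are the 2 libraries of a group, the dash with bars is their mean ± SD, and each panel starts at 0. SESN2 and DDIT4 lie at or below 27.0 RPM in both shCDCA8 libraries and at or above 101 RPM in both shCTRL libraries, whereas the groups overlap for RPTOR and TSC2.

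SESN2 encodes a leucine-binding sensor that, without leucine, inhibits the GATOR2 complex and so keeps mTORC1 off the lysosome. SESN2 stood at 24.7 and 27.0 RPM in the shCDCA8 libraries, against 101 and 112 RPM in the shCTRL libraries. Both shCDCA8 libraries lay far below both control libraries, and the values rested on 1291 and 1492 reads in shCDCA8 cells and 5370 and 5245 reads in shCTRL cells. The mean was 4.12-fold lower after knockdown, a log2 fold change of -2.001 ± 0.108 (SE over 2 and 2 libraries, limma, adjusted p = 5.29e-08). Here and below, the limma SE uses a variance partly shared over genes. After median-ratio scaling the log2 fold change was -1.70 (adjusted p = 3.03e-06, with 4.46e-49 to 7.44e-05 across alternatives). SESN2 ranked 173 from the lowest log2 fold change among the 11833 genes.

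DDIT4 encodes REDD1, which needs the TSC complex to lower mTORC1 activity under hypoxia, glucocorticoids or starvation. DDIT4 stood at 21.0 and 23.0 RPM in shCDCA8 cells, against 116 and 115 RPM in shCTRL cells. The groups were far apart and the libraries within each group close together. The mean was 5.25-fold lower, with a log2 fold change of -2.34 ± 0.104 (SE over 2 and 2 libraries, limma, adjusted p = 1.30e-08). This was the largest change of the 10 genes under every alternative run, and it ranked 82 from the lowest of the 11833 genes tested as deposited. Median-ratio scaling gave -2.04 (adjusted p = 1.33e-06, with 5.31e-70 to 4.75e-05 across alternatives).

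**Figure D2:**
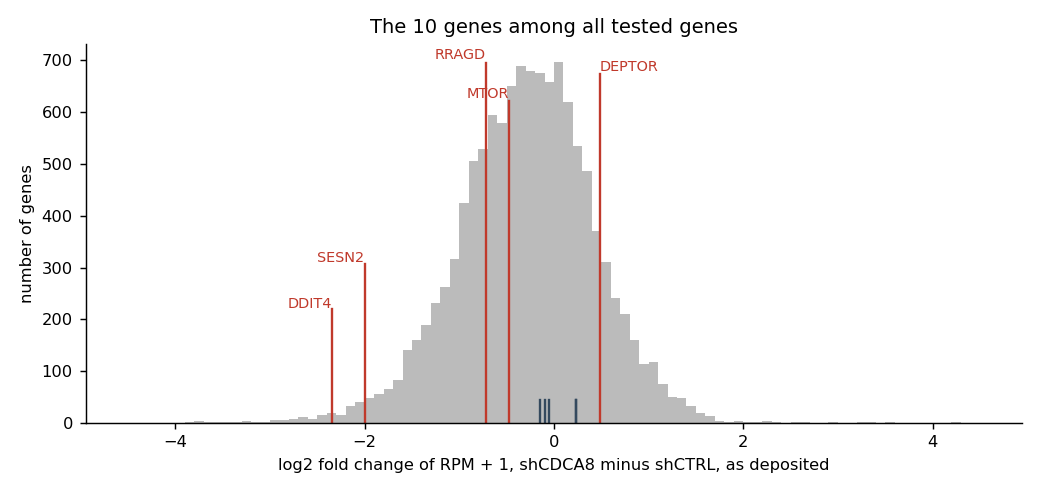
Distribution of the log2 fold change (horizontal axis, shCDCA8 minus shCTRL, RPM + 1, as deposited) over all genes tested (grey bars, number of genes), with the 10 genes as vertical lines, red where called and dark blue where not. The height of a line carries no value. DDIT4 and SESN2 lie in the far left tail, at -2.34 and -2.001, and DEPTOR lies on the right at 0.48, inside the bulk of the distribution.

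Because SESN2 and DDIT4 moved together and both are known targets of ATF4, the sequence around their start sites is shown, from 250 bases before to 50 bases after the annotated start (RefSeq, GRCh38.p14). Each window was searched on both strands for TGATGNAA, the core of the composite element that ATF4 binds with C/EBP partners, and for TCACGTG, an E-box of the type bound by the lysosomal regulators TFEB and TFE3. The SESN2 window is chr1:28259268-28259567 and the DDIT4 window chr10:72273674-72273973, both on the plus strand. Matches are in capitals, and neither window holds one.
SESN2: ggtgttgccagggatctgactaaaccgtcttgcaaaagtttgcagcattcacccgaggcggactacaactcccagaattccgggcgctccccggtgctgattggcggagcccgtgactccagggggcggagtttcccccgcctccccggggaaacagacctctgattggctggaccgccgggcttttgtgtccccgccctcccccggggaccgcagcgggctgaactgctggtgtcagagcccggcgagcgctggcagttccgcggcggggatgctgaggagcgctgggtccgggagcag
DDIT4: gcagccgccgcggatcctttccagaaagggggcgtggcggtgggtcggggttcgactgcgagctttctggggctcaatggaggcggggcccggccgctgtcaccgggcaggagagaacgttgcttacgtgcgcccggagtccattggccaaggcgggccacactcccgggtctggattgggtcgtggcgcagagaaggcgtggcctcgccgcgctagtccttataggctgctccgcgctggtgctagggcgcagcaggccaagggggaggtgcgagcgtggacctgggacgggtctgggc

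The windows of TSC2 and RRAGC did hold matches and are shown for contrast. The TSC2 window, chr16:2047735-2048034 on the plus strand, holds both motifs in 1 run, the E-box starting 115 bases and the ATF4-type core 110 bases before the annotated start, so that they overlap. This E-box also matches on the opposite strand, 114 bases before the start. A further annotated TSC2 start had no match in its window. The RRAGC window, chr1:38859723-38860022 on the minus strand, holds the E-box on the opposite strand, starting 112 bases before the annotated start.
TSC2: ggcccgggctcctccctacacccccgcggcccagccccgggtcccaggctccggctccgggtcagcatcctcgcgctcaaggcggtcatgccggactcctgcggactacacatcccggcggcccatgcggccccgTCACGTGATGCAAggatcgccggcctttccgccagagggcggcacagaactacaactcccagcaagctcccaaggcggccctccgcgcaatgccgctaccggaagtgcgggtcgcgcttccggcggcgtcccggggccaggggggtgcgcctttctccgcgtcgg
RRAGC: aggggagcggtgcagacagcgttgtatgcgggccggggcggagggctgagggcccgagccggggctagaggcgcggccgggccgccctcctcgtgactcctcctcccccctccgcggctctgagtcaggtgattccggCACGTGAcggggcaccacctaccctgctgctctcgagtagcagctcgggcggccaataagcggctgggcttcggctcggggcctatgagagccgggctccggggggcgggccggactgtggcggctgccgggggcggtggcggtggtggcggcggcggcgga

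Among all 35116 windows of this length, 3.62% held TGATGNAA and 3.71% held TCACGTG. Among the 12984 windows of tested genes, 1.87% and 5.42% held them. The windows of MTOR, RPTOR, TSC1 and RHEB held neither. A match is a description of the letters and no evidence of binding, and a window without one says nothing of elements farther away.

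By the distance between profiles of log2(RPM + 1) over the 4 libraries, each centred on its mean, the genes nearest to SESN2 were PAN2, ANKRD13B and SMAD9. PAN2, a subunit of an mRNA deadenylase, lay at a distance of 0.0307 and stood at 6.74 and 7.63 RPM in shCDCA8 cells, against 29.7 and 33.7 RPM in shCTRL cells. Nearest to DDIT4 were TES, CHPF and GDF11, with TES, a LIM domain protein of cell adhesions, at a distance of 0.0277. TES stood at 5.93 and 6.51 RPM in shCDCA8 cells and 35.8 and 34.7 RPM in shCTRL cells. With 4 libraries in 2 groups, this measure brings together genes of similar fold change and similar replicates.

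Within the sestrin family the fall was largest in SESN2. SESN1, a related leucine sensor, stood at 17.6 and 17.5 RPM in shCDCA8 cells and 23.8 and 23.1 RPM in shCTRL cells and fell by 0.40 on the log2 scale (limma adjusted p = 0.00883), a call lost after median-ratio scaling (adjusted p = 0.414). The SESN2 to SESN1 ratio within a library does not depend on how libraries are scaled. It was 1.40 and 1.54 in shCDCA8 cells and 4.23 and 4.87 in shCTRL cells, with no overlap. An exact two-sided permutation test gave p = 0.333 for this ratio, the smallest p that 2 against 2 libraries allow. SESN3 varied more between the control libraries than between groups, at 49.0 and 57.0 RPM in shCDCA8 cells against 82.1 and 47.4 RPM in shCTRL cells, and was not called (adjusted p = 0.302), but fell by 0.63 on the log2 scale without shCTRL replicate 2 and by 0.34 without shCDCA8 replicate 2.

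MTOR encodes the kinase itself. Its level was 43.6 and 50.7 RPM in shCDCA8 cells, against 64.2 and 67.6 RPM in shCTRL cells, with no overlap. As deposited it fell by 0.48 ± 0.110 on the log2 scale (SE over 2 and 2 libraries, limma, adjusted p = 0.00225). After median-ratio scaling the log2 fold change was -0.17 and was not called (adjusted p = 0.114, with 4.3e-06 to 0.198 across alternatives), so the call rests on how the libraries are scaled. The antisense gene MTOR-AS1 lies within MTOR in RefSeq, and without a stated strand its reads cannot be told apart.

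RPTOR encodes raptor, the scaffold that presents substrates to the kinase. RPTOR stood at 30.9 and 39.1 RPM in shCDCA8 cells and at 34.2 and 40.5 RPM in shCTRL cells. The libraries within each group differed by more than the group means, and RPTOR was not called (log2 fold change -0.09 ± 0.134, SE over 2 and 2 libraries, limma, adjusted p = 0.558). Median-ratio scaling turned the sign to 0.21 (adjusted p = 0.13, with 0.128 to 0.897 across alternatives).

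DEPTOR encodes an inhibitory subunit that binds the kinase in both of its complexes. It was the 1 gene of the 10 that rose as deposited. DEPTOR stood at 18.3 and 17.8 RPM in shCDCA8 cells, against 13.1 and 12.1 RPM in shCTRL cells, and both knockdown libraries lay above both controls. The mean was 1.43-fold higher, a log2 fold change of 0.48 ± 0.121 (SE over 2 and 2 libraries, limma, adjusted p = 0.00389), or 0.78 after median-ratio scaling (adjusted p = 0.000477, with 6.02e-07 to 0.0228 across alternatives). DEPTOR was called higher under all 15 alternatives, and its scaled log2 fold change exceeded that of 88.0% of the genes tested.

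Ratios between transcripts of the complex were taken within each library. The DEPTOR to MTOR ratio was 0.419 and 0.350 in shCDCA8 cells, against 0.204 and 0.179 in shCTRL cells, a log2 difference of 1.001. The RPTOR to MTOR ratio was 0.709 and 0.771 in shCDCA8 cells, against 0.532 and 0.598 in shCTRL cells, a log2 difference of 0.39. Neither ratio overlapped between groups, and each had an exact two-sided permutation p of 0.333, the smallest possible here. Ratios are of RPM, not corrected for transcript length, so they compare libraries and not the abundance of one subunit with another. RPTOR against RICTOR, the scaffold of mTORC2, stood at 9.46 and 14.05 in shCDCA8 cells and at 41.4 and 126 in shCTRL cells (exact two-sided permutation p = 0.333). The ratios to RICTOR rest on 171 and 154 RICTOR reads in shCDCA8 cells and 44 and 15 in shCTRL cells. Their log2 difference of -2.65 went from -3.45 without shCTRL replicate 1 to -1.84 without shCTRL replicate 2. RICTOR reached the filter of 1 RPM only in the shCDCA8 libraries, so nothing is read from this ratio or its p.

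**Figure D3:**
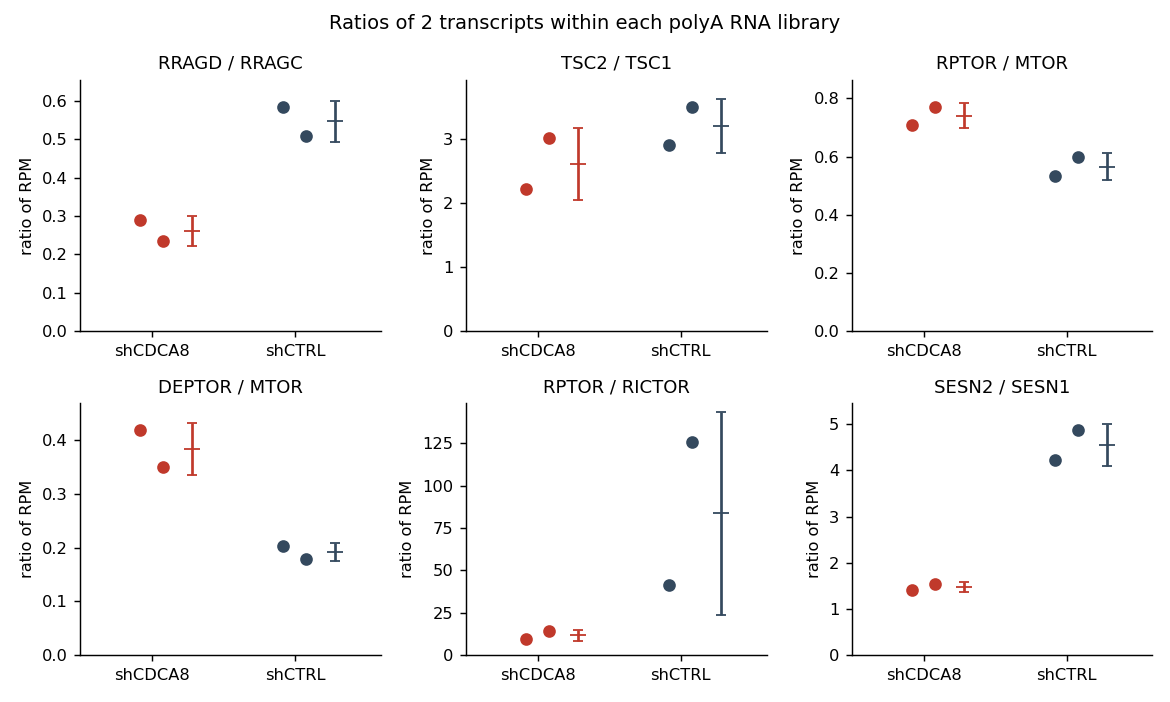
Ratios of the RPM of 2 genes within each library, in shCDCA8 cells (red, left) and shCTRL cells (dark blue, right); points are the 2 libraries of a group, the dash with bars is their mean ± SD, and each axis starts at 0. The RRAGD to RRAGC and SESN2 to SESN1 ratios are lower in both shCDCA8 libraries and DEPTOR to MTOR is higher, while TSC2 to TSC1 overlaps between the groups.

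TSC1 encodes hamartin, which stabilises the tuberous sclerosis complex. TSC1 stood at 20.7 and 20.2 RPM in shCDCA8 cells, against 17.5 and 16.8 RPM in shCTRL cells. The groups did not overlap, yet the log2 fold change of 0.24 ± 0.116 was not called as deposited (SE over 2 and 2 libraries, limma, adjusted p = 0.0885). After median-ratio scaling it was 0.53 and was called (adjusted p = 0.00218, with 0.000317 to 0.279 across alternatives).

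TSC2 encodes tuberin, the subunit that switches RHEB off. TSC2 stood at 45.7 and 60.8 RPM in shCDCA8 cells and at 50.9 and 59.0 RPM in shCTRL cells. The control values lay inside the range of the knockdown values, and the log2 fold change of -0.06 ± 0.137 was not called (SE over 2 and 2 libraries, limma, adjusted p = 0.738). Median-ratio scaling gave 0.25 (adjusted p = 0.09, with 0.0841 to 0.798 across alternatives). The TSC2 to TSC1 ratio was 2.21 and 3.01 in shCDCA8 cells and 2.91 and 3.502 in shCTRL cells, overlapping between the groups (exact two-sided permutation p = 0.667).

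RHEB encodes the small GTPase that activates mTORC1 at the lysosome. Its level was 55.8 and 50.5 RPM in shCDCA8 cells, against 57.3 and 60.8 RPM in shCTRL cells. The groups lay next to each other without overlap, and the log2 fold change of -0.15 ± 0.105 was not called (SE over 2 and 2 libraries, limma, adjusted p = 0.225). Its sign turned with median-ratio scaling, to 0.16 (adjusted p = 0.172, with 0.077 to 0.66 across alternatives). RHEB has annotated pseudogenes in RefSeq, with which reads could be shared.

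RRAGC and RRAGD encode the Rag GTPases C and D, which pair with RagA or RagB and stand in for each other in the heterodimer. RRAGC stood at 21.1 and 19.8 RPM in shCDCA8 cells, against 16.5 and 18.1 RPM in shCTRL cells, so that the knockdown libraries were the higher ones. Its log2 fold change of 0.23 ± 0.119 was not called as deposited (SE over 2 and 2 libraries, limma, adjusted p = 0.11). It was 0.53 and called after median-ratio scaling (adjusted p = 0.00246, with 0.000391 to 0.382 across alternatives).

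RRAGD moved the other way. It stood at 6.09 and 4.63 RPM in shCDCA8 cells, against 9.64 and 9.21 RPM in shCTRL cells, on 318 and 256 reads in shCDCA8 cells and 514 and 430 reads in shCTRL cells. RRAGD was 1.76-fold lower after knockdown, with a log2 fold change of -0.72 ± 0.147 (SE over 2 and 2 libraries, limma, adjusted p = 0.000976). After median-ratio scaling it was -0.45 (adjusted p = 0.0323, with 9.77e-06 to 0.0374 across alternatives), and it was called lower under all 15. The RRAGD to RRAGC ratio was 0.289 and 0.234 in shCDCA8 cells, against 0.585 and 0.508 in shCTRL cells, a log2 difference of -1.07 with no overlap between the groups (exact two-sided permutation p = 0.333, the smallest possible). Leaving out each library in turn gave log2 differences between -1.22 and -0.92.

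**Figure D4:**
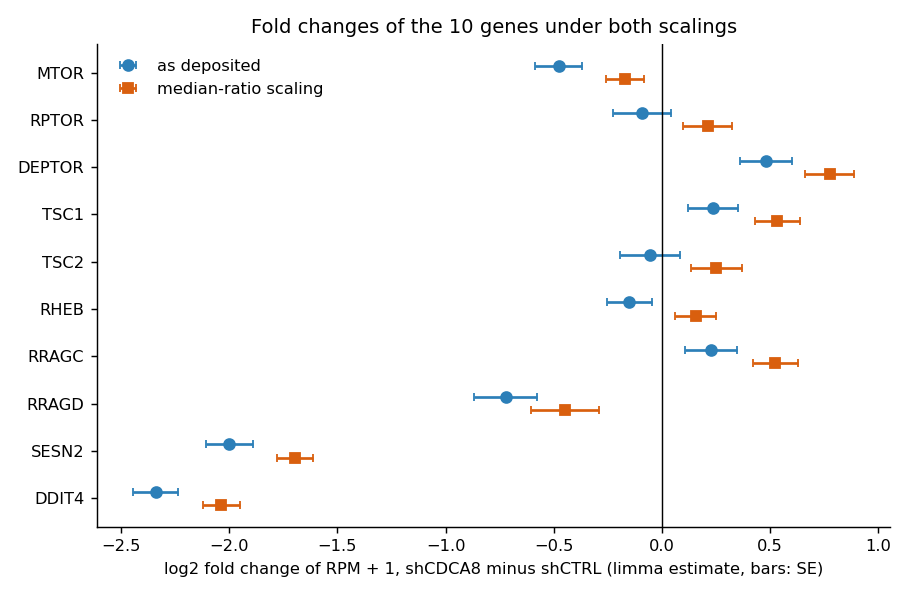
Log2 fold change of each of the 10 genes (horizontal axis, shCDCA8 minus shCTRL, RPM + 1, limma estimate with bars for the SE), as deposited (blue circles) and after median-ratio scaling (orange squares). DDIT4, SESN2 and RRAGD lie left of 0 and DEPTOR right of 0 under both, while RPTOR, TSC2 and RHEB change sign between them.

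Around these genes, 97 of 103 further genes of the pathway could be tested, of which 25 rose and 36 fell as deposited and 40 rose and 24 fell after median-ratio scaling. Over all genes tested, 18.8% rose and 47.6% fell as deposited, and 33.2% rose and 33.6% fell after median-ratio scaling; each count below is to be read against these shares. The median log2 fold change of the 97 was -0.13, against -0.27 over all genes tested. Of the ATF4 arm of the integrated stress response, to which SESN2 and DDIT4 belong as known targets, 8 of 9 genes fell under both scalings, with a median of -1.59. ATF4 itself stood at 131 and 125 RPM in shCDCA8 cells, against 662 and 677 RPM in shCTRL cells, a log2 fold change of -2.38, and TRIB3 (-2.07) and CEBPB (-1.75) fell as well. Of the other inputs to DDIT4, HIF1A rose (0.67), ARNT fell (-0.71), and the relative DDIT4L was not called (0.00).

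A list of 12 genes around the Rag GTPases was split, with 5 higher and 4 lower (6 and 3 after median-ratio scaling). It holds RRAGA, RRAGB and the Ragulator genes LAMTOR1 to LAMTOR5, and beside them SLC38A9, FLCN, FNIP1, FNIP2 and the TSC complex gene TBC1D7. Of the higher genes SLC38A9 (0.73), FNIP1 (0.80) and TBC1D7 (0.67), and of the lower FNIP2, encode neither a Rag GTPase nor a Ragulator subunit; the first 3 are named here after their values were seen. LAMTOR1 (-0.96), LAMTOR4 (-0.98) and FNIP2 (-1.17) had the smallest p of the list. The Ragulator genes were split, since LAMTOR3 (0.60, or 0.88 after median-ratio scaling) and LAMTOR5 (0.28, or 0.58) were called higher under both. LAMTOR2 (-0.20) was not called. LAMTOR2, LAMTOR3 and LAMTOR5 were also named after their values were seen. Of 15 genes of the lysosomal V-ATPase, the proton pump that works with the Ragulator in amino acid signalling, 11 rose and none fell (13 and 0 after median-ratio scaling), with a median of 0.64 beside -0.27 for all genes. ATP6V1D stood at 49.97 and 43.8 RPM in shCDCA8 cells, against 19.5 and 16.9 RPM in shCTRL cells, and ATP6V1E1 (1.07) and ATP6V1B2 (1.08) rose too. Of the MiT/TFE factors that drive lysosomal genes, TFE3 fell (-0.72), TFEB (0.09) and MITF (-0.18) were not called, and TFEB was called under 1 of 15 alternatives, median-ratio scaling (0.37, adjusted p = 0.0489), but not with edgeR (0.41, adjusted p = 0.058) or DESeq2 (0.41, adjusted p = 0.0649).

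Upstream of the Rag GTPases, 4 of 12 GATOR and KICSTOR genes were called lower and none higher, a smaller share lower than the 47.6% of all genes, and after median-ratio scaling 2 were called higher and none lower. Among the 4, WDR59 (-0.48) and NPRL3 (-0.47) were no longer called after that scaling. NPRL3 also lost its call without shCDCA8 replicate 1 (-0.29, limma adjusted p = 0.12) and without shCTRL replicate 2 (-0.30, adjusted p = 0.104), within a range of 1.88e-05 to 0.354 across alternatives. Of 4 tested amino acid sensors beside SESN2, SESN1 fell, and SESN3, GATSL3 (CASTOR1, 0.03) and LARS (0.16) were not called as deposited, while LARS was called higher after median-ratio scaling (0.47). Of 8 further genes listed with the mTOR complexes 5 fell and 1 rose (3 and 3 after median-ratio scaling), with MLST8 at -1.11, PRR5 at -1.47 and RICTOR at 1.37. TELO2 (-0.41), TTI1 (-0.02) and TTI2 (-1.20), which are on this list, encode no subunit of either complex. RICTOR passed the filter only through the shCDCA8 libraries (3.27 and 2.79 RPM, against 0.83 and 0.32 RPM in shCTRL cells), so nothing is read from its call. Among growth factor and energy inputs 3 of 15 rose and 3 fell (9 and 1 after median-ratio scaling). As deposited, PIK3CA (1.23), CAB39 (1.06) and PRKAG2 (0.83) rose, and PIK3CB (-0.65), STRADA (-0.42) and PRKAB1 (-0.40) fell. After median-ratio scaling PIK3CB kept its call (-0.35), while STRADA (-0.15) and PRKAB1 (-0.12) lost theirs. PIK3CA, at 1.29 and 0.98 RPM in shCTRL cells, would not have passed the filter on those libraries alone, and nothing is read from its call. PIK3CB stood at 20.4 and 20.2 RPM in shCDCA8 cells, against 34.3 and 30.7 RPM in shCTRL cells. Of 15 substrates and outputs 8 fell and 4 rose (6 and 4 after median-ratio scaling), near the shares of 47.6% and 18.8% over all genes. EIF4EBP1, the translation repressor that mTORC1 inactivates by phosphorylation, stood at 53.9 and 57.3 RPM in shCDCA8 cells, against 232 and 226 RPM in shCTRL cells (-2.02). The related EIF4EBP2 went the other way, at 109 and 99.9 RPM in shCDCA8 cells, against 60.4 and 63.5 RPM in shCTRL cells (0.75). GRB10 fell by 1.53 on the log2 scale, and RPS6KB2, which encodes a ribosomal S6 kinase, rose by 1.65.

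**Figure D5:**
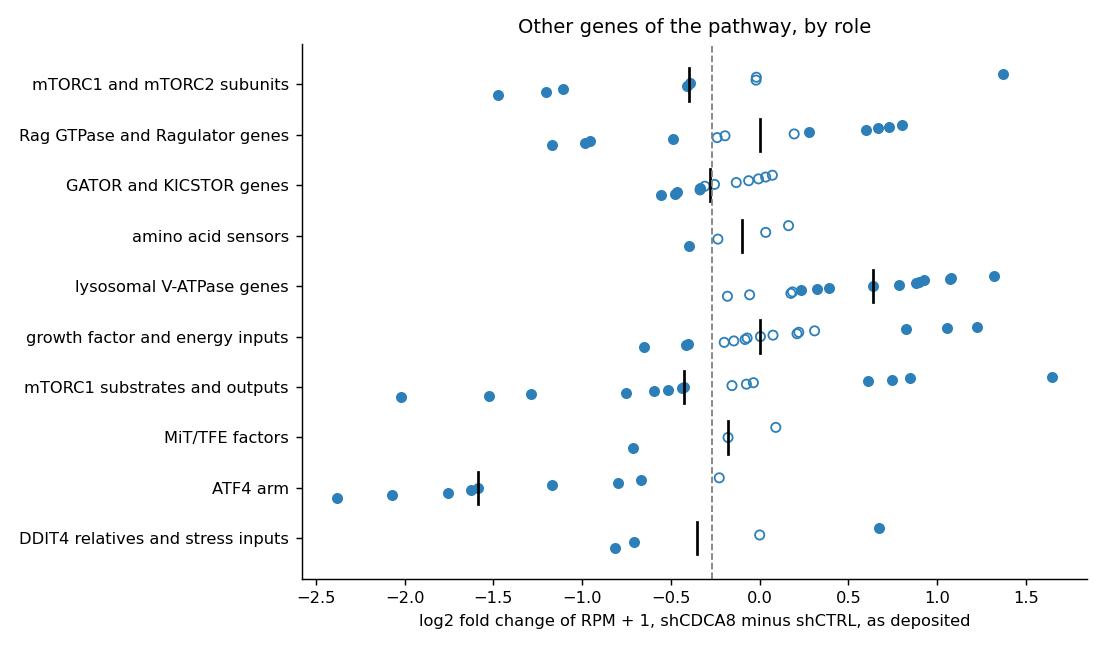
Log2 fold change as deposited (horizontal axis, shCDCA8 minus shCTRL, RPM + 1) of the tested genes of each list (rows); filled points are calls at an adjusted p under 0.05, open points are not called, black bars mark each list's median and the dashed line the median of all genes at -0.27. The V-ATPase genes lie mostly to the right of the dashed line, with a median of 0.64, and the ATF4 arm to its left, with a median of -1.59.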

How the data were processed

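PolyA RNA of C4-2 cells was sequenced from 2 shCDCA8 and 2 shCTRL libraries, which the sample titles assign to their groups. The values the authors deposited are RPM, read counts divided by a library total that exceeds the sum of the rows and put on a common scale. Cutadapt, TopHat, HTSeq and edgeR are named, with the build hg19, in the submitters' processing notes. The labels name kits of 2 makers for RNA extraction without saying which served these libraries. Tool versions, the annotation, the strand setting and the divisor are not given in the sources used. Each value was a whole multiple of a per-library step (100% lay within 0.01 read of one), which gave back whole reads, 17406425 to 21920570 per library.

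Genes reaching 1 RPM in 2 or more of the 4 libraries were tested as log2(RPM + 1) with limma 3.58.1 in R 4.3.3 (trend, two-sided, Benjamini-Hochberg over 11833 genes). Fold changes are on this scale, which understates those of low genes. A call is an adjusted p under 0.05. Median-ratio scaling was computed over genes tested and above 0 in all 4 libraries. The recovered reads were also tested with edgeR 4.0.16, which called 7807 genes, and DESeq2 1.42.0. Further alternatives were other pseudocounts, filters and scalings, no trend, a replicate block and leaving out each library. The fit was tested on simulated data. Replicates differed beyond sampling noise, with a chi-square of 11.6 per degree of freedom between the shCDCA8 libraries and 9.70 between the shCTRL libraries. In limma the variance of each gene was moderated toward a trend over all genes tested. SEs and p-values therefore rest on a spread partly shared between genes, not on the libraries of 1 gene alone. No label says that the replicates came from separate cultures, so the spread between these libraries may be technical.

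The 10 genes and the lists were chosen with earlier results of these data known. Named beside them are CDCA8, of each list the 3 called genes with the smallest p (all tested genes of lists with 5 or fewer), and the 3 genes of mean at least 5 RPM, other than clone and locus names, nearest in profile to SESN2 and to DDIT4; some genes that this rule names are not reported here. Some further genes, such as PIK3CB, EIF4EBP2 and TELO2, lie outside this rule and were named after their values were seen. Symbols were matched through RefSeq and gene name tables, 100 of 103 pathway genes among them. Start-site windows for DEPTOR and RRAGD were not used here, and the small RNA table was not analysed here.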

Additional observations from a re-analysis of the deposited data

How the results depend on the processing

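SESN2, DDIT4 and RRAGD were called lower and DEPTOR higher under all 15 alternatives. Over the 10 genes and 15 alternatives, 115 of 150 log2 fold changes kept both direction and side of the threshold, 12 gained a call, 4 lost one and 19 changed sign. The 4 lost calls were those of MTOR, and the gained calls those of TSC1 and RRAGC. The changes of sign concern RPTOR, TSC2 and RHEB, which were not called under any alternative. RPTOR stood at 0.21 with median-ratio scaling, 0.17 with quantile normalization, 0.23 with scaling to the summed rows, 0.22 with edgeR and 0.22 with DESeq2, and TSC2 at 0.25, 0.19, 0.27, 0.26 and 0.27 in the same order. RHEB stood at 0.16, 0.088, 0.17, 0.16 and 0.16. Leaving out 1 library gave RPTOR -0.26 to 0.071 and TSC2 -0.26 to 0.15. Among the other genes, SESN3 stood at 0.072 with median-ratio scaling, 0.086 with scaling to the rows, 0.0061 with edgeR and 0.011 with DESeq2, and between -0.63 and 0.15 over the libraries left out, where it was called without shCDCA8 replicate 2 (-0.34) and without shCTRL replicate 2 (-0.63). MITF stood at 0.036, 0.20, 0.045, 0.056 and 0.066 in the order given for RPTOR. Leaving out libraries gave GATSL3 -0.092 to 0.16, TFEB -0.053 to 0.24 and DDIT4L -0.031 to 0.031.

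In all, 7852 genes were called, between 6717 and 7683 with 1 library left out. Higher calls numbered 2224 as deposited, 3931 with median-ratio scaling, 3980 with quantile normalization, 3985 with scaling to the rows, 3851 with edgeR and 3639 with DESeq2, and lower calls 5628, 3979, 3721, 3873, 3956 and 3575. Of the 10 genes, 3 were called higher under each of these scalings and count models, where 1 was as deposited. Of the other pathway genes, 40, 38 and 40 were called higher under the first 3 of these scalings, against 25, and 23 lower with scaling to the rows and with DESeq2, against 36. The cause was not tested beyond the scaling itself. The labels share replicate numbers but name no common batch, and the differences between replicates 1 and 2 correlated at 0.31 between the groups over the genes tested. With the replicate number as a block, 8901 genes were called, and 7 of the 10 genes, 3 of them higher, TSC1 and RRAGC being added at 0.24 and 0.23.

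With 2 libraries a group, a ratio within libraries cannot reach an exact p below 0.333, and RRAGD, at 256 to 514 reads, is the least deeply covered of the 10 genes.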
